A study of Rattus norvegicus with 6 samples.

Results

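The DnaJ co-chaperones, also called J proteins or HSP40 proteins, were examined by stage of the male germ line and by library in single cells of the rat testis. The members were all gene names of the count tables that begin with Dnaja, Dnajb or Dnajc followed by a digit. They numbered 45 of the 21170 genes listed: 4 of subclass A, 13 of subclass B and 28 of subclass C. The name rule uses no measured value, but the members were chosen with earlier results of these data known. Of the 45 members, 44 had a count in some cell. Dnajc22 had 0 of 467873978 counts, which allows a level of up to 0.00641 CPM (counts per 1000000 counts; 3 counts, counting error only). Dnajc12 had 26 counts and did not pass the filter on low counts, so 43 members entered the comparison of stages.

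The cells came from testes of SD rats, an outbred laboratory stock. Of the 6 libraries, each labelled as 1 rat, 3 are controls from normal rats and 3 are from rats after psychological stress, the terrified-sound model. The tissue was minced and dissociated, and the Singleron GEXSCOPE kit was used on microfluidic devices. The sources used here do not state the age of the animals or the length of the stress, and neither group is said to carry a transgene, a deletion or a drug treatment. The study's question is what such stress does to the making of sperm.

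A J protein works as the partner of an HSP70 chaperone. Its J domain carries a conserved histidine, proline and aspartate motif that makes HSP70 hydrolyse ATP and grip its client, and the rest of the protein decides which client is delivered and where. Subclass A members resemble bacterial DnaJ in having a zinc-binding region, subclass B members lack that region but keep the stretch rich in glycine and phenylalanine, and subclass C members share the J domain alone and serve special tasks in the endoplasmic reticulum, the mitochondrion, on vesicles, in splicing or at the ribosome. Male germ cells are known for their own HSP70 forms and for several J proteins found mostly in testis.

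Promoters of Dnaja1, Dnajb1 and Dnaja4 are shown because Dnaja1 fell and its subclass A relative Dnaja4 rose as germ cells matured, and because Dnajb1 is a textbook heat shock gene in a study of stress. They are taken from RefSeq (GRCr8, 250 bases before to 50 bases after the gene's start, 5′ to 3′ on the strand of the gene). Capitals mark GAANNTTC or TTCNNGAA, the paired units that heat shock factors are known to bind. Each reads the same on both strands.
Dnaja1 (chr5:60638154-60638453, GRCr8, plus strand): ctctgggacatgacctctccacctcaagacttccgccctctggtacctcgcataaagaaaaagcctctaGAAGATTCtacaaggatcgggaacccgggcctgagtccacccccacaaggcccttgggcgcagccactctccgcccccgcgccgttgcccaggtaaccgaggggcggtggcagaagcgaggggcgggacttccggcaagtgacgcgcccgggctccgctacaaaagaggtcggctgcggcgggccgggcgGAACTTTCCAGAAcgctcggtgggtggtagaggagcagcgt
Dnajb1 (chr19:41431092-41431391, GRCr8, minus strand): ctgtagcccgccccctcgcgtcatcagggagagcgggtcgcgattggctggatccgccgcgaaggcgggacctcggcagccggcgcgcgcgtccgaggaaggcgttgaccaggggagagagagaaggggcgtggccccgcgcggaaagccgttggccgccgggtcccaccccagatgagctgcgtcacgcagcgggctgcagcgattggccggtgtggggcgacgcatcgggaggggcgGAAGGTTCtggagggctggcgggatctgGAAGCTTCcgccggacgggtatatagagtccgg
Dnaja4 (chr8:63981337-63981636, GRCr8, plus strand): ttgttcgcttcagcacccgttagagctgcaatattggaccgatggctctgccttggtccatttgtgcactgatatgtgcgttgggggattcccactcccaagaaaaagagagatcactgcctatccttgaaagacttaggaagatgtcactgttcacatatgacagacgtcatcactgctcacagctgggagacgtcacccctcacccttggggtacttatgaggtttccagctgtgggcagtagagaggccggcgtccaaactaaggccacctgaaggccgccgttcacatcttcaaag
The Dnaja1 promoter holds 3 matches, of which 2 overlap, the Dnajb1 promoter holds 2, and that of Dnaja4 holds 0. Promoters were listed for 35 of the 45 members, and 6 of these held a match: Dnaja1, Dnajb1, Dnajb6, Dnajc18, Dnajc27 and Dnajc5g. Among all 33469 promoters of the same length, 15.9% held one. The cyclic AMP response element TGACGTCA, which also reads the same on both strands, was present in the promoters of Dnajc27 and Dnajc30 and in 1.83% of all promoters. A match is a description of these letters only.

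The deposited tables held 11744 cells, of which the control libraries (replicates 1 to 3) had 2342, 1801 and 2453 and the stressed libraries 409, 2506 and 2233, with 16756543 to 114984746 counts a library. Clusters made without the members and other chaperone genes fell into 3 classes named from fixed markers: 1360 spermatocyte-like cells, 4206 round spermatid-like cells and 5879 elongating spermatid-like cells. These are the first, the second and the third class below, and the changes between them the first and second step. In that order 18 of 19, 17 of 18 and 15 of 16 fixed markers of the class had a count. The classes were named from these markers, so this is no separate test of the names. A further 299 cells were left unnamed, since macrophage genes led their cluster while all 15 elongating spermatid markers were each found in most of its cells. Stressed replicate 1 stood apart: 227 of its 409 cells were unnamed, and 26, 116 and 40 cells were left for the 3 classes. The defining spermatid markers were also seen in earlier cells: their summed level was 3436 to 10339 CPM in spermatocyte-like cells against 109224 to 153304 CPM in elongating spermatid-like cells, a mean share of 4.44%. Summed markers of Sertoli, Leydig, peritubular myoid, endothelial, T and natural killer, and erythroid cells were each at or below 75.8 CPM in every class and library. Libraries shared 2 barcodes. Levels below are CPM, the counts of a gene in all cells of a class and library over all counts of that class and library. They are not divided by transcript length, so they rank stages and libraries for a gene and not genes against each other. Means over 6 libraries take both groups together.

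Summed over all members, the family took a growing part of the counts along the germ line. They made up 0.759 ± 0.046% of counts in spermatocyte-like cells, 0.993 ± 0.0336% in round spermatid-like cells and 1.45 ± 0.112% in elongating spermatid-like cells (mean ± SD, n = 6), and the libraries of one class did not overlap those of the next. The family also changed its makeup. Dnajb3, Dnajb4, Dnajc5b, Dnajb8 and Dnajb7, the members with the most counts in elongating spermatid-like cells, held 65.2% of all member counts there, 47.0% in round spermatid-like cells and 12.0% in spermatocyte-like cells. In spermatocyte-like cells the members with the most counts summed over libraries were Dnajc2, Dnajb1, Dnaja1, Dnajb6 and Dnajc15, and in round spermatid-like cells they were Dnajb3, Dnajc5b, Dnajb7, Dnajb4 and Dnajc18.

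Stages were compared within animals with edgeR's quasi-likelihood test and the library as a block. The direction of a gene depended here on how libraries were scaled. The median log2 change of all 12620 genes from spermatocyte-like to round spermatid-like cells was 0.13 with TMM scaling, -0.16 with RLE scaling and -0.60 against total counts alone. From round spermatid-like to elongating spermatid-like cells it was -0.27, -0.10 and -1.58. A member is therefore said to rise or fall in the text below only where its adjusted p was under 0.05 in the same direction under all 3 scalings, and the log2 changes printed are those with TMM unless said otherwise. From spermatocyte-like to round spermatid-like cells 14 of 43 members rose (32.6%, against 29.7% of all genes) and 13 fell (30.2%, against 27.4%), shares near those of all genes. With TMM alone 18 were higher, against 37.6% of all genes, and 13 lower, against 27.4%. RLE gave 15 higher and 15 lower and total counts 14 and 24. From round spermatid-like to elongating spermatid-like cells 8 of 43 members rose (18.6%, against 8.2% of all genes) and 8 fell (18.6%, against 31.4%). With TMM alone 26 were higher, against 24.7% of all genes, and 8 lower, against 34.4%. RLE gave the same split and total counts gave 8 higher and 18 lower, so the larger count of higher members holds only relative to the other genes and not in share of counts. Coarser clustering (Leiden resolution 0.5) gave 22 higher and 6 lower members at the first step, where 23 of the 31 TMM calls kept their direction and passed again, and 26 and 8 at the second, where 32 of the 34 did. The member counts under RLE, total counts and this clustering stand without shares of all genes. By share of counts, 12 of 43 members and 3481 of 12620 genes were higher in every library at the first step. There 23 members and 4824 genes were lower. At the second step 10 members and 1110 genes were higher in every library, and 20 members and 7069 genes lower.

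**Figure D1:**
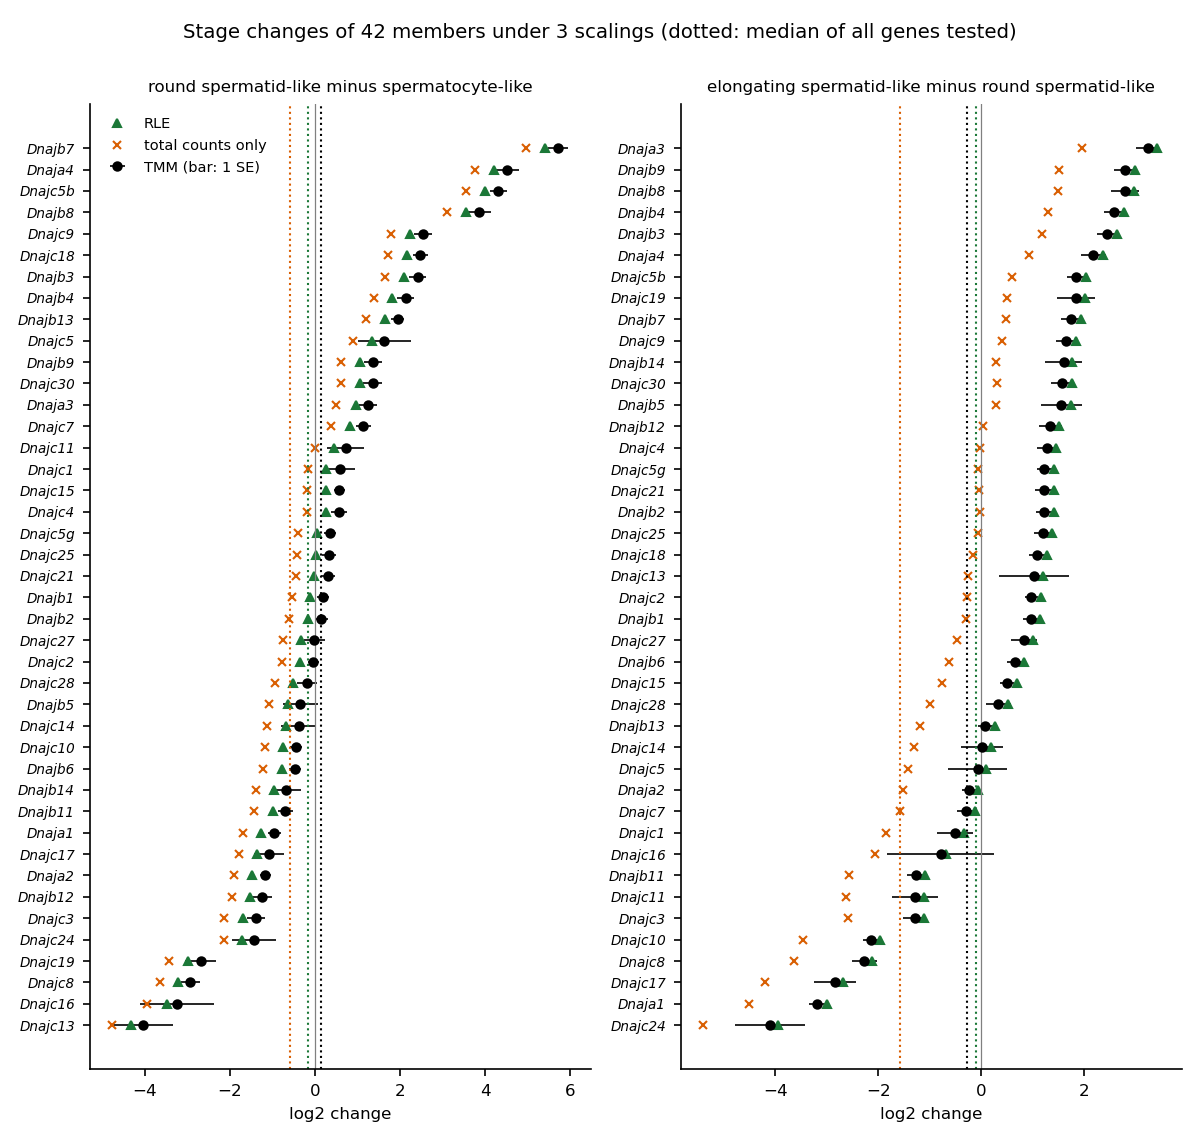
Log2 change between germ cell classes for 42 of the 43 members tested (Dnajc6, with 2 counts in the earliest class, is left out), under TMM (black, bar 1 SE), RLE (green) and total counts alone (orange). Dotted lines are the medians of all genes tested in the same colours, and most members lie to the right of their own line in the second panel.

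By the same rule 29.7% of all genes rose and 27.4% fell at the first step, and 8.2% and 31.4% at the second. These shares stand beside each role list below. The members known from testis or from axonemes had the highest median change of the role lists at both steps. This rank is no test, since the list was made of genes known from testis or axonemes, with earlier results of these data known. Of the 6 on that list, 5 rose from spermatocyte-like to round spermatid-like cells and none fell, with a median log2 change of 3.14 beside 0.13 over all genes. From round spermatid-like to elongating spermatid-like cells 4 rose and none fell, with a median of 1.80 beside -0.27. Dnajb7, a close relative of Dnajb6, measured 18.1, 22.2 and 21.5 CPM in the control libraries and 32.5, 58.4 and 27.5 CPM in the stressed libraries in spermatocyte-like cells. In round spermatid-like cells it measured 648, 962 and 891 CPM in the control libraries and 1012, 933 and 959 CPM in the stressed libraries. Every library of the second class was far above every library of the first. Its log2 change was 5.72 (SE 0.24, adjusted p = 2.0e-12), the largest of the family at this step, with a further 1.76 (SE 0.20, adjusted p = 4.8e-07) to elongating spermatid-like cells, where it stood at 1257 ± 175 CPM (SD, n = 6).

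Dnajb8, a relative of Dnajb6 known to suppress the clumping of proteins, had 61.3, 23.6 and 64.6 CPM in the control libraries and 71.5, 127 and 61.9 CPM in the stressed libraries in spermatocyte-like cells. In elongating spermatid-like cells it had 1888, 1346 and 1744 CPM in the control libraries and 998, 1544 and 1986 CPM in the stressed libraries, so every library was far above its earlier level, with stressed replicate 1 the lowest. That library had 27 of its 40 elongating spermatid-like cells in the cluster nearest to round spermatid-like cells by marker score, a larger part than any other library, and within this cluster it measured 787 CPM against 996 to 1206 CPM in the others. The log2 changes were 3.86 (SE 0.29, adjusted p = 1.6e-09) and then 2.79 (SE 0.27, adjusted p = 8.8e-08). Dnajb3, whose mouse counterpart is a known spermatid J protein, stood at 414 ± 63.0 CPM in the first class, 1305 ± 113 CPM in the second and 2973 ± 372 CPM in the third (mean ± SD, n = 6), and the ranges of the 3 classes were apart. Its log2 changes were 2.42 (SE 0.20, adjusted p = 4.8e-09) and 2.45 (SE 0.20, adjusted p = 7.9e-09). Dnajc5b, a testis form of cysteine string protein, the J protein of secretory vesicles, stood at 102 ± 52.9 CPM in the first class, 1129.7 ± 287 CPM in the second and 1739 ± 564 CPM in the third (mean ± SD, n = 6). In elongating spermatid-like cells its libraries ranged from 1152 to 2518 CPM, overlapping the 820.2 to 1486 CPM of round spermatid-like cells, yet all 6 animals rose, with log2 changes of 4.32 (SE 0.20, adjusted p = 6.6e-12) and 1.85 (SE 0.18, adjusted p = 9.9e-08).

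Beside these rises stands the share of spermatid RNA in the earliest class. The level in spermatocyte-like cells was 2.39% of that in elongating spermatid-like cells for Dnajb7, 4.07% for Dnaja4, 4.31% for Dnajb8 and 5.88% for Dnajc5b, close to the 4.44% of the summed spermatid markers. It was 13.9% for Dnajb3 and 15.7% for Dnajb4, above that share. How much of the early counts is free RNA was not tested. In RefSeq (GRCr8) the spans of 10 members (Dnajb3, Dnajb7, Dnajc14, Dnajc16, Dnajc17, Dnajc19, Dnajc27, Dnajc28, Dnajc7 and Dnajc9) overlap another coding gene, and 26 pseudogenes of members are listed. The sources used here do not state whether strand was used in counting or how shared reads were treated, so the values of these members carry that doubt. Xpnpep3, which overlaps Dnajb7, reached no more than 6.5 CPM in any library of the 3 classes. Dnajb3 lies across the Ugt1a genes, of which Ugt1a3 is in the tables and reached no more than 21.5 CPM.

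Dnajb13, a J protein of the radial spokes of cilia and sperm tails, followed another course. It stood at 137 ± 31.2 CPM in the first class, 313 ± 23.3 CPM in the second and 139.7 ± 26.1 CPM in the third (mean ± SD, n = 6), rising in all 6 animals at the first step with a log2 change of 1.95 (SE 0.16, adjusted p = 3.9e-09). At the second step the TMM change was 0.08 (SE 0.15, adjusted p = 0.662), while its share of counts was lower in all 6 animals, with a log2 change of -1.18 on total counts. Dnajc5g, the gamma form of cysteine string protein, was the most even of the list, at 206 ± 47.4 CPM in the first class, 157 ± 37.7 CPM in the second and 151 ± 33.3 CPM in the third (mean ± SD, n = 6). It was called higher at both steps with TMM but had -0.39 and -0.05 on total counts, so it counts neither as a rise nor as a fall.

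**Figure D2:**
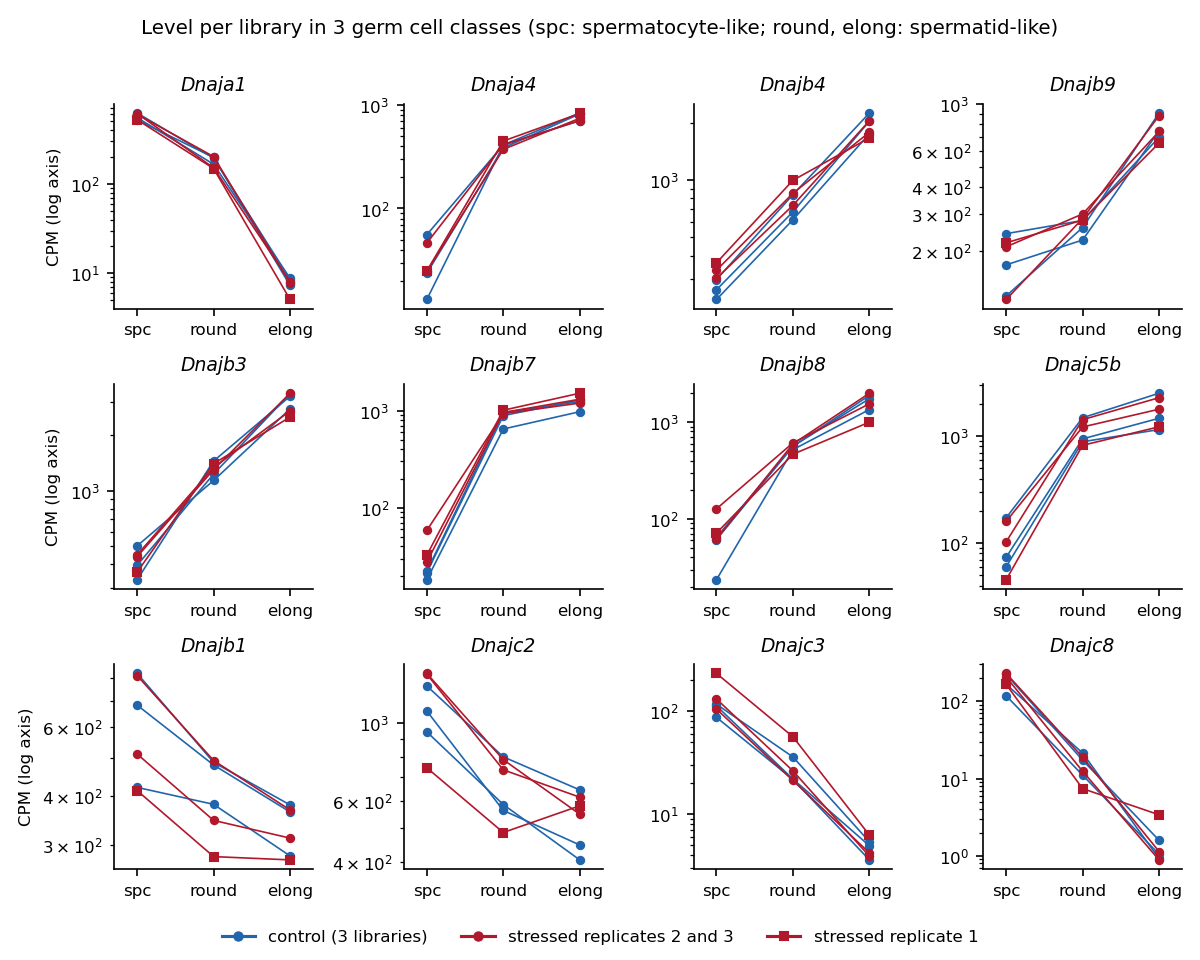
Level (CPM, log axis) of 12 members in the 3 germ cell classes, 1 line per animal, control in blue and stressed in red, with stressed replicate 1 as squares. Lines of both colours run together and climb for Dnaja4, Dnajb4, Dnajb9, Dnajb3, Dnajb7, Dnajb8 and Dnajc5b and descend for Dnaja1, Dnajc3 and Dnajc8.

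The cytosolic members of subclasses A and B, which bring general clients to HSP70, split in opposite directions. Of 8 on that list, 2 rose and 3 fell at the first step (median log2 change -0.10), and 2 rose and 1 fell at the second (median 1.09, but -0.16 on total counts). Dnaja1, a farnesylated general co-chaperone whose promoter with 3 heat shock matches is printed above, measured 519, 550.2 and 620.1 CPM in the control libraries and 522, 612 and 601 CPM in the stressed libraries in spermatocyte-like cells. In round spermatid-like cells it measured 198, 166 and 194 CPM in the control libraries and 149, 151 and 202 CPM in the stressed libraries, and in elongating spermatid-like cells 7.33, 8.8 and 8.53 CPM in the control libraries and 5.1, 8.09 and 7.8 CPM in the stressed libraries. The 3 classes did not overlap, and the log2 changes were -0.96 (SE 0.15, adjusted p = 2.5e-05) and -3.19 (SE 0.17, adjusted p = 5.0e-11). Dnaja4, its close relative, ran the other way. It measured 23.7, 13.2 and 55.8 CPM in the control libraries and 24.9, 46.4 and 24.7 CPM in the stressed libraries in spermatocyte-like cells, 372 to 448 CPM over the 6 libraries in round spermatid-like cells and 705 to 836 CPM in elongating spermatid-like cells. Its log2 changes were 4.52 (SE 0.27, adjusted p = 7.3e-11) and 2.19 (SE 0.24, adjusted p = 3.1e-07). Dnaja1 thus had its highest and Dnaja4 its lowest level in the same cells, in every library.

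Within subclass B, Dnajb4 and its relative Dnajb1 also differed, but only Dnajb4 passed the rule. Dnajb4, a relative of Dnajb1, rose from 301 ± 47.2 CPM to 786 ± 136 CPM and then to 1921 ± 224 CPM (SD, n = 6), with log2 changes of 2.14 (SE 0.20, adjusted p = 2.7e-08) and 2.59 (SE 0.20, adjusted p = 5.4e-09). Dnajb1, the heat-inducible HSP40, did not rise or fall by the rule: its TMM changes were 0.20 (SE 0.14, adjusted p = 0.233) and 0.96 (SE 0.14, adjusted p = 1.3e-05), while on total counts they were -0.55 and -0.30. Its mean level was 610.4, 412 and 331 CPM in the order of the stages. Dnaja2, a second farnesylated member, fell at the first step in all 6 animals, from 508 ± 54.5 to 136 ± 20.4 CPM, with a log2 change of -1.17 (SE 0.13, adjusted p = 3.0e-07). Dnajb6, which keeps polyglutamine proteins soluble, fell at that step with -0.47 (SE 0.15, adjusted p = 0.0102), but it lost the call without stressed replicate 3 (adjusted p = 0.0567) and under the coarser clustering, where the change was 0.03. Dnajb2, a ubiquitin-binding form, and Dnajb5, at 1.95 ± 0.448 CPM in round spermatid-like cells, passed the rule at neither step.

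Of the 10 members of the endoplasmic reticulum, 5 fell at the first step (Dnajb11, Dnajb12, Dnajc3, Dnajc10 and Dnajc16) and 2 rose (Dnajb9 and Dnajc18), beside 27.4% and 29.7% of all genes, with a median log2 change of -0.56. Of these, Dnajc3 and Dnajc18 kept their TMM call under the coarser clustering. There Dnajb11 (-0.16, adjusted p = 0.521), Dnajb12 (-0.29, adjusted p = 0.300), Dnajc16 (-0.33, adjusted p = 0.799) and Dnajb9 (0.54, adjusted p = 0.0540) did not pass, and Dnajc10 was called higher. At the second step 3 fell (Dnajb11, Dnajc3 and Dnajc10) and Dnajb9 rose, with a median of 0.29, or -1.0 on total counts. Dnajc10, a reductase that breaks disulfide bonds of misfolded proteins, stood at 180.3 ± 38.4 CPM in the first class, 78.8 ± 13.5 CPM in the second and 7.41 ± 1.46 CPM in the third (mean ± SD, n = 6). Its change was -0.44 (SE 0.15, adjusted p = 0.0154) and then -2.14 (SE 0.16, adjusted p = 2.7e-09). The first of these lost its call without control replicate 2 (adjusted p = 0.0522) or stressed replicate 2 (adjusted p = 0.0509) and turned to 0.59 under the coarser clustering. Dnajb11, a lumenal partner of the HSP70 protein BiP, stood at 104 ± 11.2 CPM in the first class, 39.7 ± 9.8 CPM in the second and 7.04 ± 2.22 CPM in the third (mean ± SD, n = 6), and every animal was lower at each step. Its changes were -0.69 (SE 0.17, adjusted p = 0.00173), which the coarser clustering did not keep, and -1.26 (SE 0.18, adjusted p = 6.7e-06).

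Dnajb9, a lumenal member that helps degrade misfolded proteins and holds the stress sensor IRE1 in check, measured 171, 241 and 121 CPM in the control libraries and 218, 208 and 117 CPM in the stressed libraries in spermatocyte-like cells and 746, 695 and 906 CPM in the control libraries and 652, 739.6 and 880.3 CPM in the stressed libraries in elongating spermatid-like cells. The lowest elongating spermatid-like library was well above the highest spermatocyte-like library, and the log2 changes were 1.37 (SE 0.21, adjusted p = 1.6e-05) and 2.81 (SE 0.22, adjusted p = 5.2e-09), the first of them 0.54 and not called under the coarser clustering. Dnajc3, a lumenal co-chaperone also known as an inhibitor of the kinase PERK, measured 113, 117 and 87.4 CPM in the control libraries and 234, 132 and 105 CPM in the stressed libraries in spermatocyte-like cells and 21.9, 35.9 and 21.7 CPM in the control libraries and 56.5, 26.3 and 21.2 CPM in the stressed libraries in round spermatid-like cells. It fell at both steps, with -1.38 (SE 0.21, adjusted p = 1.5e-05) and -1.29 (SE 0.22, adjusted p = 4.7e-05), and stressed replicate 1 was the highest library in both of these classes. That library also carried the most macrophage and stromal marker RNA in its 26 spermatocyte-like cells. The 11 macrophage markers on the list, 9 of them with a count, together reached 618 CPM there against 43.3 to 80.5 CPM in the other 5 libraries, and the 8 stromal markers, 7 with a count, 1247 CPM against 6.89 to 29.0 CPM. Their part in the level of Dnajc3 was not tested. Dnajc18, a membrane-bound form, rose from 229 ± 49.4 CPM to 753 ± 86.5 CPM at the first step, with 2.48 (SE 0.17, adjusted p = 4.6e-10). It then stood at 673 ± 78.9 CPM, where TMM and total counts gave opposite signs (1.09 and -0.16). Dnajc1, Dnajb14 and Dnajc25 passed at neither step.

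Of the 7 mitochondrial members, 2 rose (Dnaja3 and Dnajc30) and 1 fell (Dnajc19) at the first step, and Dnaja3 rose and Dnajc11 fell at the second. The medians were 0.57 and 1.28, and on total counts -0.18 and -0.02. Dnaja3, the subclass A member of the matrix, was low and then high: 41.5 ± 11.6 CPM, 57.5 ± 7.18 CPM and 233 ± 83.7 CPM. Its elongating spermatid-like libraries held 343, 266 and 182 CPM in the control libraries and 129, 174 and 302 CPM in the stressed libraries, with no library as low as in round spermatid-like cells, and its change at that step was 3.24 (SE 0.23, adjusted p = 1.3e-09), the largest rise of the family there. Dnajc19, a part of the motor that pulls proteins through the inner membrane, fell from 7.58 to 32.3 CPM over the 6 libraries to 0.812 to 3.67 CPM, with -2.69 (SE 0.37, adjusted p = 4.5e-06). Dnajc15, a relative of Dnajc19, stood at 501 ± 48.0 CPM in spermatocyte-like cells and passed the rule at neither step, since TMM and total counts differed in sign at both. Dnajc4 and Dnajc28 did not pass either. Dnajc11, a protein of the inner membrane organising system, fell at the second step from 9.39 ± 1.39 to 1.44 ± 1.05 CPM with -1.28 (SE 0.45, adjusted p = 0.0200), a call lost without control replicate 1 (adjusted p = 0.0679) or stressed replicate 2 (adjusted p = 0.0585) and under the coarser clustering (adjusted p = 0.152).

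Of the 6 members of vesicles and endosomes, which include the cysteine string proteins described above, 2 rose (Dnajc5b and Dnajc6) and Dnajc13 fell at the first step, with a median of 0.99. At the second step Dnajc5b rose and none fell, with a median of 1.13, or -0.16 on total counts. Dnajc6, auxilin, which strips clathrin from coated vesicles, had 2 counts in all spermatocyte-like cells and 109 in all round spermatid-like cells, a ratio of levels of 15.3 with a counting interval of 4.14 to 128 (exact, 95%). Dnajc13, an endosomal protein, had 5.71, 4.4 and 2.24 CPM in the control libraries and 24.9, 3.63 and 3.36 CPM in the stressed libraries in spermatocyte-like cells and no library above 0.767 CPM in round spermatid-like cells. Its log2 change was -4.03 (SE 0.70, adjusted p = 6.3e-05), and without stressed replicate 1, the high library, -4.01 (adjusted p = 0.00020). Dnajc5, the form known from synapses, and Dnajc27, a small GTPase with a J domain, passed at neither step.

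Among the members listed for the nucleus, splicing or translation, 3 of 7 fell at the first step (Dnajc8, Dnajc17 and Dnajc24) and Dnajc9 rose. At the second step 3 fell, again Dnajc8, Dnajc17 and Dnajc24, and none rose. Dnajc8, a splicing factor, measured 165, 118 and 222 CPM in the control libraries and 165, 205 and 228 CPM in the stressed libraries in spermatocyte-like cells and 0.928, 1.05 and 1.59 CPM in the control libraries and 3.4, 0.889 and 1.14 CPM in the stressed libraries in elongating spermatid-like cells. The lowest early library was far above the highest late one, and its changes were -2.93 (SE 0.22, adjusted p = 1.8e-09) and -2.27 (SE 0.24, adjusted p = 2.0e-07). Dnajc17, also a spliceosome protein, changed by -1.08 (SE 0.35, adjusted p = 0.0127) and -2.84 (SE 0.41, adjusted p = 9.0e-06), the first of which turned to 0.81 under the coarser clustering. Dnajc24, needed to make diphthamide on elongation factor 2, fell from 12.2 ± 4.85 CPM to 2.74 ± 1.12 CPM and then to 21 counts in all elongating spermatid-like cells, with log2 changes of -1.43 (SE 0.51, adjusted p = 0.0212) and -4.10 (SE 0.68, adjusted p = 4.7e-05). The first call was lost without control replicate 1 (adjusted p = 0.0647) or control replicate 2 (adjusted p = 0.0561), and under the coarser clustering, where the change was -0.83 (adjusted p = 0.258). Dnajc9, a histone chaperone, rose from 25.0 ± 7.91 CPM to 89.6 ± 21.6 CPM with 2.54 (SE 0.22, adjusted p = 8.3e-09). Dnajc2, the ribosome-bound member with the most counts of all in spermatocyte-like cells, had 1135 ± 258 CPM in the first class, 659 ± 131 CPM in the second and 540.4 ± 94.0 CPM in the third (mean ± SD, n = 6). Its share of counts was lower in all 6 animals at the first step, but the TMM change was -0.04 (SE 0.12, adjusted p = 0.810), so no fall is called. Dnajc21, which matures the large ribosomal subunit, and Dnajc14 passed at neither step. Dnajc14 was counted on this list although it has been tied to the endoplasmic reticulum. Outside these lists, Dnajc7, which joins HSP70 and HSP90, rose at the first step from 91.5 ± 14.3 to 121 ± 27.2 CPM in 5 of 6 animals, with 1.13 (SE 0.18, adjusted p = 1.8e-05).

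Several members that kept their call under the coarser clustering had another size of change there. At the first step Dnaja1 changed by -0.54, Dnaja2 by -0.40, Dnajc8 by -1.56 and Dnajc13 by -2.10, all smaller falls than above. Dnajc3 changed by -2.32 and Dnaja3 by 1.99, both larger. At the second step Dnajc8 changed by -3.55, also a larger fall, and with finer clusters (Leiden resolution 2) Dnajc3 changed by -0.77, a smaller one.

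A finer order was read from the 10 named clusters, numbered as positions 1 to 10 by the difference of late and early germ cell markers. Of the 43 members tested, 24 had their highest mean level in the 2 spermatocyte-like clusters, 6 in the 3 round spermatid-like clusters and 13 in the 5 elongating spermatid-like clusters. The same count over all genes is not given here. On total counts the median log2 change of all genes between classes was -0.60 and then -1.58. The count therefore does not set the members apart from other genes. Dnajb7 peaked early among the members highest in elongating spermatid-like clusters: it went from 28.1 CPM in position 2 to 907 CPM in position 4 and 1799 CPM in position 6, and was down to 342 CPM in position 10. Dnajb8, Dnajb3 and Dnajb4 went on to position 10, at 2349.7, 3843 and 2809 CPM, from 1013, 2123 and 1414 CPM in position 6. Dnajb7 was thus highest at the first of the elongating spermatid-like clusters and the other 3 at the last. Dnajb13 was highest in position 4 (352 CPM) and at 21.1 CPM in position 10. Dnajc3 and Dnajc19 were highest in position 1, at 259 and 51.5 CPM against 40.0 and 7.6 CPM in position 2. Dnajb9 fell and then climbed: it stood at 334 CPM in position 1, 100.1 CPM in position 2, 416 CPM in position 5 and 1004 CPM in position 10. Dnajc9 also fell and rose again, from 44.0 CPM in position 1 to 15.4 CPM in position 2, 202 CPM in position 6 and 40.2 CPM in position 10. These are means over the 4 to 6 libraries with at least 20 cells in a cluster, given with no test.

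**Figure D3:**
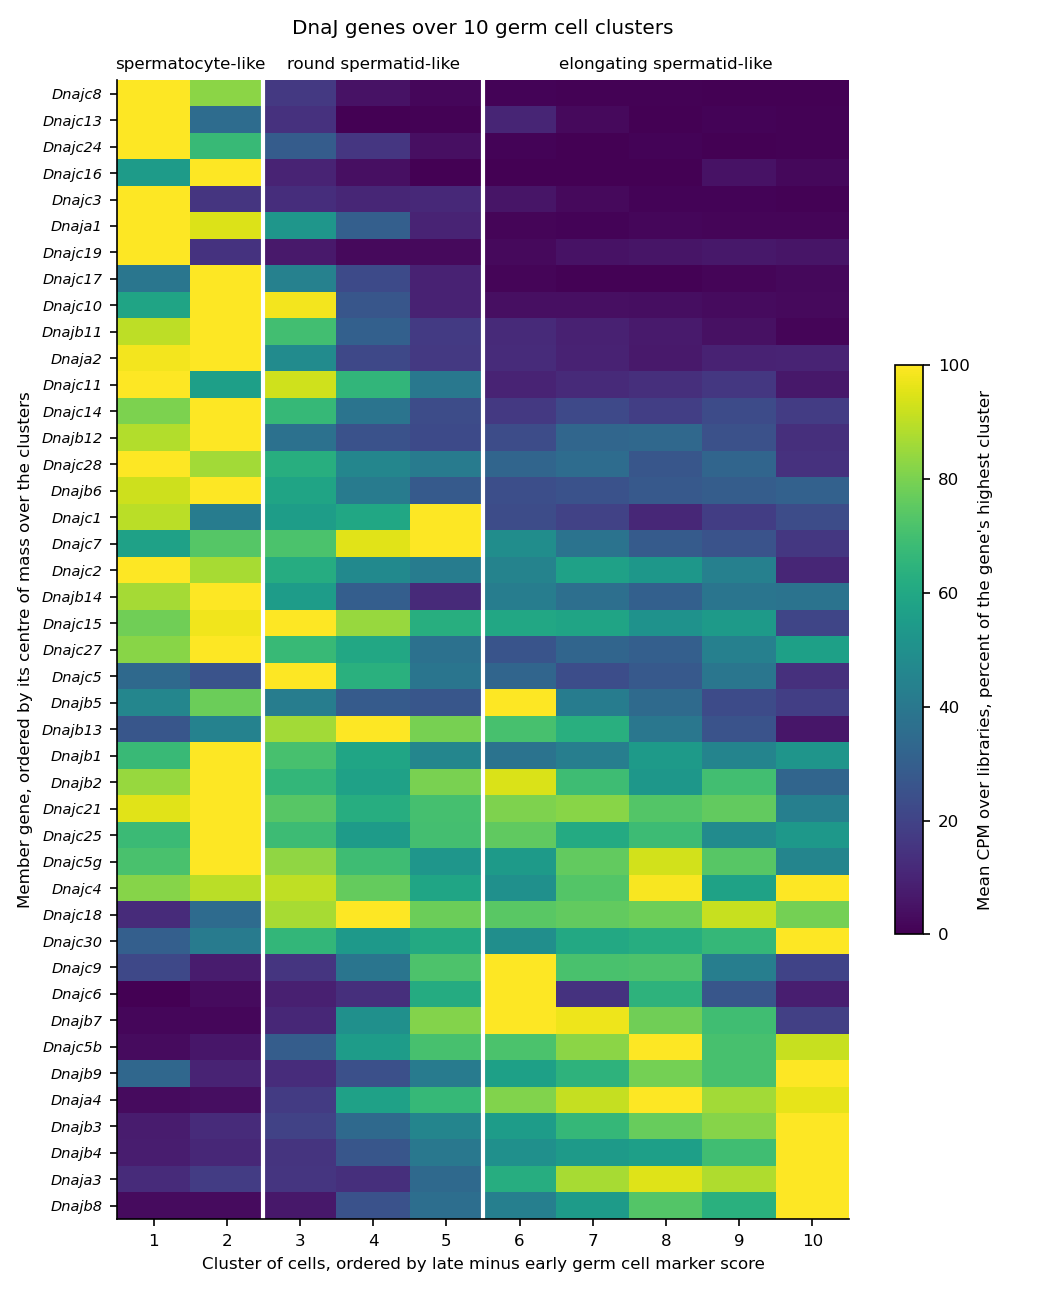
Mean level of 43 members in the 10 named clusters (columns, earliest to latest by marker score), as a percent of the gene's own highest cluster. Rows are sorted by each gene's centre of mass over the clusters, so the diagonal of bright cells comes from the sorting. By highest cluster, 24 members are highest in the 2 spermatocyte-like clusters and 13 in the 5 elongating spermatid-like clusters. The same count over all genes is not given, so it does not set the members apart.

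Dnajc4, a little-studied mitochondrial member, differed more between animals than between stages, with means of 117, 104 and 105 CPM in the order of the stages. It measured 135, 67.0 and 138 CPM in the control libraries and 62.9, 84.8 and 139 CPM in the stressed libraries in round spermatid-like cells. In elongating spermatid-like cells it measured 139, 63.5 and 152 CPM in the control libraries and 42.5, 104 and 132 CPM in the stressed libraries, and in spermatocyte-like cells 135, 72.7 and 139 CPM in the control libraries and 83.4, 109 and 159.6 CPM in the stressed libraries. Control replicate 2 and stressed replicate 1 were the 2 lowest libraries in all 3 classes, so each group held low and high animals. Dnajb1 showed the same 2 libraries lowest in spermatocyte-like cells (421 and 414 CPM) and elongating spermatid-like cells (282 and 276 CPM), with the others from 512 to 822 CPM and from 313 to 380.3 CPM. Dnajc5b and Dnajc5g were also lowest in these 2 libraries in round spermatid-like cells, at 886 and 820.2 CPM and at 134 and 103 CPM. Members also went the other way, and those named here were picked for their pattern. In the same class Dnajb2 was highest in these 2 libraries, at 111 and 151 CPM against 71.6 to 85.3 CPM. So was Dnajc15, at 553 and 495 CPM against 352 to 450 CPM. Those libraries also held the most cells of the unnamed cluster, 63 and 227. Over 9718 genes these libraries had a correlation of 0.496 in the check on pairing given further below. That was the highest of any control library with any stressed library, so their likeness was not particular to the members. The labels give no batch, and whether these libraries share one was not tested.

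Between stressed and control animals no member passed the test in any class. The number called was 0 of 42 in spermatocyte-like cells (0.0% of all genes), 0 of 41 in round spermatid-like cells (0.0163%), 0 of 40 in elongating spermatid-like cells (0.00928%) and 0 of 43 over all cells of a library (0.00689%), with edgeR's quasi-likelihood test and Benjamini-Hochberg adjustment over all genes. DESeq2 also called 0 members. At an unadjusted p under 0.05 there was 1 member, in spermatocyte-like cells, and the smallest adjusted p of any member was 0.998 with edgeR. In simulated data of the same size, 4-fold changes were recovered for 27.2%, 48.9% and 41.1% of genes in the 3 classes and 2-fold changes for 3.33%, 7.07% and 3.12%, so a change of 2-fold in a member would usually be missed. The family's share of counts was 0.75 ± 0.0418% in control and 0.768 ± 0.0576% in stressed spermatocyte-like cells, 0.979 ± 0.0341% and 1.01 ± 0.0325% in round spermatid-like cells, and 1.47 ± 0.0647% and 1.43 ± 0.162% in elongating spermatid-like cells (SD, n = 3), groups that overlapped in each class. Over all cells of a library the controls had 1.14, 1.22 and 1.21%, against 1.3, 1.24 and 1.24% after stress, so every stressed library was above every control there, with stressed replicate 1 highest. In the same order elongating spermatid-like cells made up 48.4, 53.5 and 45.3% of control and 9.78, 66.1 and 43.6% of stressed cells, and 227 of the 409 cells of stressed replicate 1 were in the unnamed cluster. The part of this makeup in the family's share was not tested.

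In spermatocyte-like cells 6 of 42 members had groups that did not overlap (14.3%, against 8.13% of all genes). Dnajb4, Dnajb7 and Dnajc7 were above the controls in every stressed library, and Dnajb5, Dnajc9 and Dnajc15 were below. Dnajb7, with its per-library values given above, had the smallest unadjusted p of any member in a class, with a log2 difference of 1.02 (SE 0.41, unadjusted p = 0.0317). Its groups were apart, with stressed replicate 2 highest. The summed elongating spermatid markers in the same cells measured 5495, 3436 and 5710.2 CPM in control and 7464, 10339 and 4171 CPM in stressed libraries, with groups that overlapped and the same library highest. Their part in the Dnajb7 values was not tested. Dnajb4 differed by 0.41 (SE 0.21, unadjusted p = 0.0819) and Dnajc3 by 0.62 (SE 0.32, unadjusted p = 0.0753), the latter with 0.28 once stressed replicate 1 was left out.

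In round spermatid-like cells 4 of 41 members had groups apart (9.76%, against 8.02% of all genes): Dnajb9 was higher in the stressed libraries, and Dnaja3, Dnajc10 and Dnajb6 were lower. Dnajb9 measured 224, 278 and 257 CPM in the control libraries and 279, 299 and 284 CPM in the stressed libraries, a difference of 0.26 (SE 0.19, unadjusted p = 0.201) in which the lowest stressed library was just above the highest control. Dnajc10 measured 92.4, 87.4 and 88.7 CPM in the control libraries and 57.3, 69.1 and 77.9 CPM in the stressed libraries, with -0.31 (SE 0.22, unadjusted p = 0.184). Both kept to a small range, and neither passed. Dnajc1, a membrane protein of the endoplasmic reticulum, had the smallest unadjusted p here, with a difference of 0.74 (SE 0.37, unadjusted p = 0.0748). Its values were 19.7, 23.6 and 15.3 CPM in the control libraries and 51.4, 21.8 and 20.9 CPM in the stressed libraries, so only stressed replicate 1 stood above the controls, and without it the difference was 0.25. That library also had the most macrophage marker RNA in this class, 281 CPM against 63.8 to 126 CPM in the others, and its part was not tested. Dnajb4 differed by 0.36 (SE 0.19, unadjusted p = 0.0968).

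In elongating spermatid-like cells 2 of 40 members had groups apart (5.0%, against 6.67% of all genes), and both were lower after stress. Dnajc27 measured 21.2, 20.4 and 16.3 CPM in the control libraries and 11.3, 13.7 and 13.9 CPM in the stressed libraries, with -0.60 (SE 0.35, unadjusted p = 0.108), and -0.39 without stressed replicate 1. Dnajc14, which has been tied to receptor export from the endoplasmic reticulum, measured 2.76, 1.72 and 2.97 CPM in the control libraries and 0, 1.52 and 1.2 CPM in the stressed libraries, with -1.10 (SE 0.67, unadjusted p = 0.128). The lowest stressed value of Dnajc14 is a count of 0 in stressed replicate 1, which had 40 cells in this class. Libraries also differed in their stage within the class: of these 40 cells 27 were in the earliest elongating spermatid-like cluster (position 6), against 63 of 1134, 170 of 963 and 41 of 1112 in the control libraries and 105 of 1657 and 40 of 973 in the other stressed libraries. Within position 6 Dnajc27 measured 13.6, 13.7 and 10.3 CPM in the control libraries and 11.8, 9.4 and 8.13 CPM in the stressed libraries, and Dnajc14 2.73, 2.37 and 0 CPM in the control libraries and 0, 4.8 and 0.625 CPM in the stressed libraries, so the groups of both overlapped there. Both also overlapped in positions 7, 8 and 9. In position 10 Dnajc27 measured 31.2, 28.5 and 26.3 CPM in control libraries and 21.2 and 14.7 CPM in stressed replicates 2 and 3. Its groups were thus apart there, while those of Dnajc14 overlapped. The part of stage makeup in these differences was not tested. Dnajc30, a mitochondrial member, differed by -0.42 (SE 0.30, unadjusted p = 0.186). Of the 40 members 28 had a difference below 0, with a median of -0.14. Without stressed replicate 1 that became 17 of 40, with a median of 0.03. The share of all genes below 0 is not given here, so these counts are not read as a trait of the members.

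**Figure D4:**
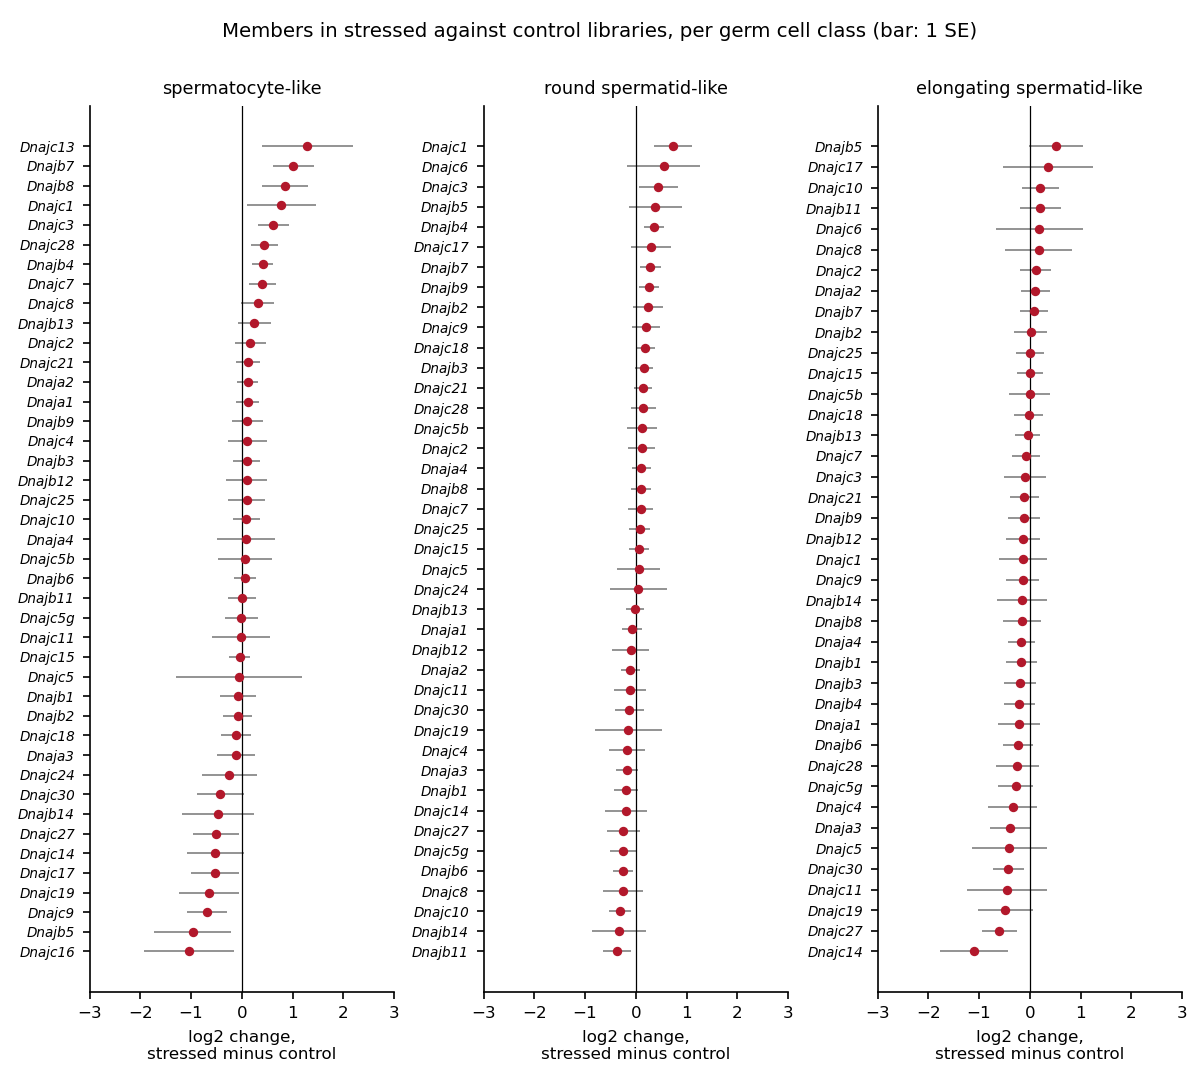
Log2 difference, stressed minus control, of the members tested in each germ cell class, sorted within a panel (bar 1 SE, 3 libraries a group). Most points lie within 1 of 0 (39 of 42, 41 of 41 and 39 of 40 members), and none passed the test.

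Over all cells of a library 1 of 43 members had groups apart (2.33%, against 5.56% of all genes). It was Dnajb8, with 1069, 991 and 1011 CPM in the control libraries and 1258, 1174 and 1103 CPM in the stressed libraries and a difference of 0.39 (SE 0.27, unadjusted p = 0.169). In such sums fewer cells of a type and less RNA per cell cannot be told apart, and libraries differed in their makeup by class. Dnajb9 differed by 0.36 (SE 0.28, unadjusted p = 0.229). Dnajc16, at no more than 1.36 CPM in any library, differed by -1.25 (SE 0.89, unadjusted p = 0.190). The test of whether the stress difference itself changed between stages called 0 of 43 members between spermatocyte-like and round spermatid-like cells (0.0% of all genes) and 0 of 43 for the later pair of stages (0.0%). At an unadjusted p under 0.05 it found 1 and 0 members with edgeR and 2 and 0 with DESeq2. The member was Dnajc9, whose log2 difference of differences was 0.94 (SE 0.38, unadjusted p = 0.0235), and 0.58 without stressed replicate 1. Dnajb5 followed with 1.36 (SE 0.80, unadjusted p = 0.110). In the later pair of stages Dnajb4 had -0.73 (SE 0.35, unadjusted p = 0.0537), which was -0.27 without stressed replicate 1, and Dnajc24 had 2.33 (SE 1.31, unadjusted p = 0.0953).

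The partners of the J proteins were read beside them from fixed lists. Of all genes, 29.7% rose and 27.4% fell at the first step, and 8.2% rose and 31.4% fell at the second. Counts near these shares do not set a list apart from other genes. Of 15 HSP70 and HSP110 genes listed, 12 were tested. At the first step 2 rose and 7 fell, with a median log2 change of -0.91, and at the second 2 rose and 4 fell, with -0.91. Hspa1l and Hspa4l were those that rose at each step. Hspa1l, the HSP70 form known from spermatids, went from 33.4 ± 26.3 to 125 ± 80.9 and 629 ± 327 CPM, with log2 changes of 2.69 (SE 0.29, adjusted p = 2.4e-07) and 3.77 (SE 0.30, adjusted p = 7.3e-09). Hspa4l, an HSP110 known from testis, went from 399 ± 84.5 to 634 ± 48.6 and 1290.4 ± 117 CPM. Hspa5, which encodes BiP, the partner of the lumenal J proteins, fell from 1166 ± 159 to 205 ± 70.1 and 13.4 ± 9.5 CPM, with log2 changes of -1.81 (SE 0.19, adjusted p = 1.6e-07) and -2.84 (SE 0.20, adjusted p = 1.9e-09). At the second step Dnajb9 thus rose while Hspa5, Dnajb11, Dnajc3 and Dnajc10 fell. Hspa2, the HSP70 of meiotic cells, fell at the second step from 645 ± 109.98 to 60.3 ± 49.8 CPM.

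Among 10 nucleotide exchange factors, which release ADP from HSP70 and so end the cycle that J proteins begin, 3 rose and 2 fell at the first step and 2 rose and 2 fell at the second. Bag1 rose at the second, from 469 ± 32.0 to 1400.2 ± 182 CPM. Of 14 genes of HSP90 and its co-chaperones tested, 11 fell at the first step and 8 at the second, and none rose at either. Hsp90aa1 went from 6161 ± 803 to 1707 ± 385 and 119.5 ± 25.3 CPM. Of 11 chaperonin genes 7 fell at each step and none rose. Of 6 small heat shock proteins tested 2 rose at the first step and none fell, and 1 rose and 1 fell at the second. Of 5 heat shock factors tested, the transcription factors that switch chaperone genes on, 2 rose and 1 fell at the first step, and 4 fell and none rose at the second. No gene of these lists passed the test between stressed and control libraries in any class.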

How the data were processed

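The authors deposited 1 table of raw counts (whole numbers, genes by cells) and 1 normalized table for each library, and the latter was not used. The sources used here do not state the aligner, the genome build, the use of strand, any filter on cells, or if counts are reads or molecules. Per the labels' protocols, the Singleron GEXSCOPE kit was used and libraries were sequenced on an Illumina NovaSeq with 150 bp paired ends. Requiring 200 genes a cell and no more than 20% mitochondrial counts removed no cell. Scrublet called 72 cells (0.613%) doublets, which stayed in. Cells were clustered without any member or listed chaperone (scanpy 1.11.5, 2000 variable genes, 30 principal components, 15 neighbours, Leiden resolution 1 with leidenalg 0.10.2). Clusters were named from fixed markers. Counts were summed per class and library where at least 20 cells were present.

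Stages were compared in 1 edgeR 4.0.16 quasi-likelihood fit over 3 classes and 6 libraries with the library as a block, and stressed with control libraries per class without a covariate, with robust estimation and TMM scaling, genes kept by filterByExpr, Benjamini-Hochberg adjustment over all genes and a threshold of 0.05. DESeq2 1.42.0, RLE scaling, no scaling factor, no filter on low counts, each library left out, other clusterings and a replicate block were alternatives (R 4.3.3). The fits were tested on simulated data. The replicate is the rat, as labelled. The members and lists were chosen with earlier results of these data known. Named with values are the 5 members with the largest rise and fall at each step, the 5 with the most counts in each class and those with the smallest p under stress (3 in each class and 2 in each interaction), and others described by role were chosen after their values were seen. Promoters are from RefSeq (GRCr8). Genes were matched by name, all 45 members to RefSeq.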

Additional observations from a re-analysis of the deposited data

How the results depend on the processing

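Members called at an adjusted p under 0.05 numbered 31 of 43 from spermatocyte-like to round spermatid-like cells and 27 to 38 under the alternatives, 27 to 32 with 1 library left out. From round spermatid-like to elongating spermatid-like cells they numbered 34, with 26 to 35 under the alternatives and 32 to 35 with 1 library left out. Shares of all genes are not given beside the stage counts under the alternatives. The alternative without a scaling factor, chosen after seeing the data, gave 14 higher and 24 lower members at the first step and 8 higher and 18 lower at the second. It turned the sign at the first step for Dnajc15 (-0.18), Dnajc4 (-0.18) and Dnajc5g (-0.39), and at the second for Dnajb1 (-0.30), Dnajb2 (-0.0258), Dnajb6 (-0.62), Dnajc15 (-0.75), Dnajc18 (-0.16), Dnajc2 (-0.27), Dnajc21 (-0.0417), Dnajc25 (-0.0559), Dnajc27 (-0.47), Dnajc4 (-0.0184) and Dnajc5g (-0.0506), and the cause was not tested. Leiden resolution 0.5 gave 22 higher and 6 lower members at the first step and turned Dnajb6 (0.0274), Dnajc10 (0.59, adjusted p = 0.00636 with edgeR) and Dnajc17 (0.81). It ended the first-step calls of Dnajb11, Dnajb12, Dnajb9, Dnajc16 and Dnajc24, whose values are given above, and the second-step calls of Dnajb5 (1.01, adjusted p = 0.0988) and Dnajc11 (-0.89, adjusted p = 0.152), and the cause was not tested. Leiden resolution 2 turned the uncalled stress difference of Dnajc1 in round spermatid-like cells to -0.0683. Besides the members named in the report, leaving out 1 library ended the TMM call of Dnajc5 or Dnajc5g at the first step and of Dnajc27 or Dnajc6 at the second. Among uncalled stress differences, that of Dnajb7 in spermatocyte-like cells was 0.61 without stressed replicate 2 and 0.14 at Leiden resolution 0.5, that of Dnajc10 in round spermatid-like cells -0.17 without stressed replicate 1, and those of Dnajc16 and Dnajb9 over all cells -0.21 and 0.20 without control replicate 1. Stress comparisons called 0 members under every alternative run, including DESeq2 and each library left out. Over all genes DESeq2 called 3 higher and 1 lower in spermatocyte-like cells, 8 and 3 in round spermatid-like cells, 7 and 0 in elongating spermatid-like cells and 9 and 5 over all cells, where edgeR called 0, 2, 1 and 1 genes. Replicate numbers are shared by the groups but no label pairs the rats. In a check on pairing over 9718 genes the correlation of same-numbered libraries was -0.21, 0.07 and 0.25. Differently numbered libraries ran from -0.626 (control replicate 2 with stressed replicate 3) to 0.496 (control replicate 2 with stressed replicate 1). The same numbers thus did not mark the most alike libraries. The fits with a replicate block also called 0 members in each class and over all cells. With 3 rats a group, 26 to 116 cells per class in stressed replicate 1 and low counts for members such as Dnajc16, differences of 2-fold between groups would mostly be missed.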

Other observations

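The 299 cells of the unnamed cluster, 227 of them in stressed replicate 1 and 63 in control replicate 2, held the members at levels like those of elongating spermatid-like cells, although macrophage genes led the cluster. In these 2 libraries Dnajb3 stood at 3633 and 3541 CPM in the unnamed cells, against 2491 and 3225 CPM in their elongating spermatid-like cells. Dnaja4 stood at 982 and 879.5 CPM against 829 and 707 CPM, and Dnajb8 at 1716 and 1676 CPM against 998 and 1346 CPM. Dnaja1, which fell at both steps, was at 7.19 and 8.19 CPM there. Dnajc21 was lower in the unnamed cells of both libraries, at 139 and 192 CPM against 302 and 384 CPM, and so was Dnajc7, at 36.1 and 17.2 CPM against 52.7 and 39.6 CPM. These are values of 1 library each, with no test.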
